A study of Mus musculus with 12 samples.

Results

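Among the genes listed for V-125 against control, 34 protein-coding genes had reads in tumors of 1 group and a raw count of 0 in all 4 tumors of the other. They were chosen by these counts, and names starting with Pcdh, Hsp or Dnaj were not considered, although none of those met the count condition. The 34 genes come from 1313 protein-coding genes among 1589 listed genes, and 17 were counted in V-125 tumors only and 17 in control tumors only. Each direction makes up 1.29% of the listed protein-coding genes. Because the counts themselves chose the genes, the values in V-125 and control tumors are given as a description, without a test.

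The tumors arose in female MMTV-Neu mice, whose Neu (HER2) transgene is driven in mammary epithelium by the mouse mammary tumor virus promoter. All 12 tumors carried this genotype, with 4 per group, and the mice ate powdered chow mixed with the ethanol and coconut oil vehicle alone (Control), with V-125 or with bexarotene, each at 100 mg per kg of diet, for 10 days. Ages were not given in the sources used here. Tumor pieces were sequenced as polyA-enriched bulk RNA, in which fewer cells of a type and less RNA per cell cannot be told apart. Each of the 8 V-125 and control tumors had between 15571690 and 22574865 reads counted on genes. The epithelial surface gene Epcam, the single listed gene of 5 luminal markers, had normalized counts of 28485 to 34948 in V-125 tumors and 37941 to 53468 in control tumors.

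Retinoid X receptors (RXRs) are nuclear receptors that pair with retinoic acid, PPAR, LXR, vitamin D or thyroid hormone receptors and bind repeats of a short DNA half-site. V-125 and bexarotene are synthetic RXR ligands, called rexinoids. Of the RXR genes, Rxra and Rxrb are active in most tissues, whereas Rxrg is best known from skeletal muscle and brain.

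The promoters of 5 members are shown because Rxrg encodes a receptor for the drugs, Selp, Pilrb1 and C2cd4a were counted in every V-125 tumor, and Mgarp had the most reads of the control-only genes. Gng10 and Ube2ql1, also counted in every V-125 tumor, and Sox14, the member with the highest values, are not shown. The promoters shown are therefore a selection and give no share. Each run holds the 250 bases before a RefSeq start on GRCm38.p6, read on the strand of the gene. Capitals mark the half-site AGGTCA or the SOX core ACAAT in either orientation. The promoters of C2cd4a and Mgarp hold neither and stand in lower case throughout. The windows lie at chr1:167598112-167598361 and chr1:167618015-167618264 (both plus strand, 2 starts of Rxrg), chr1:164115014-164115263 (plus, Selp), chr5:137858050-137858299 (minus, Pilrb1), chr9:67832331-67832580 (minus, C2cd4a) and chr3:51396548-51396797 (minus, Mgarp).
Rxrg, start 1: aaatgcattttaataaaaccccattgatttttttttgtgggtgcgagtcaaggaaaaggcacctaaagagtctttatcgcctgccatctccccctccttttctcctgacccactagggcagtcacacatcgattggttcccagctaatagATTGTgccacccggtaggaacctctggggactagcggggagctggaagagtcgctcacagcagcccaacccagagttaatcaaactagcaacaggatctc
Rxrg, start 2: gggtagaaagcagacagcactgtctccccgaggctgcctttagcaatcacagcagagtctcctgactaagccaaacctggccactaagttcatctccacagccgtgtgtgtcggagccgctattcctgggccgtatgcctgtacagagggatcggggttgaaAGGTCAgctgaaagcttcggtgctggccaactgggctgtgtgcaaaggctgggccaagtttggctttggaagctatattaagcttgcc
Selp: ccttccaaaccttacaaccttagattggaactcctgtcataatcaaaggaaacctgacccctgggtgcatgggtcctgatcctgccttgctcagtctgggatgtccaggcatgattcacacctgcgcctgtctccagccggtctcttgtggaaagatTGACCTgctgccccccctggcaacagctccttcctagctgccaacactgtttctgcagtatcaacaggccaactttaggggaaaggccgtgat
Pilrb1: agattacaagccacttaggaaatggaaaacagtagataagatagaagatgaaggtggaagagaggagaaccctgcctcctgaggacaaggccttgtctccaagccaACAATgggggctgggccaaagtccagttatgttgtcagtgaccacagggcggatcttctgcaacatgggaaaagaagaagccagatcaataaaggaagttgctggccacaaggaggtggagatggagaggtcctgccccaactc
C2cd4a: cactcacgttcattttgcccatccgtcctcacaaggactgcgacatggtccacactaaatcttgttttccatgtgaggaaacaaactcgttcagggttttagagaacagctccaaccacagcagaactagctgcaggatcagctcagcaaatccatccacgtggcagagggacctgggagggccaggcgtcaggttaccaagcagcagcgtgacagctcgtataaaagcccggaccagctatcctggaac
Mgarp: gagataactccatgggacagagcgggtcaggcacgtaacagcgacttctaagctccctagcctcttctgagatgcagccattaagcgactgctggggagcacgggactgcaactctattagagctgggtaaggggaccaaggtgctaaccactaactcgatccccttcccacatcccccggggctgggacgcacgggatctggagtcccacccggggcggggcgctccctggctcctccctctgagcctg

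The half-site of the second Rxrg start begins 88 bases before that start, and the one of Selp, on the opposite strand, begins 93 bases before its start. RefSeq promoters were matched by symbol for 31 of the 34 members, 15 of the V-125-only and 16 of the control-only genes, with 250 bases before and 50 after each start. On either strand, AGGTCA was present for 5 of the 31, namely Rxrg, Selp, Efcab9, Atf7ip2 and Bpifb1, and for 18.1% of all 27025 genes with such a window. Direct repeats of AGGTCA with 1, 4 or 5 bases between them, each of which contains the half-site, were present for 0 of the 31 and for 0.0481%, 0.0148% and 0.0111% of all genes. ACAAT was present for 9 of the 31 and for 34.4% of all genes. These counts describe the letters in the windows.

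Of the 17 genes counted with V-125 only, 5 held reads in all 4 V-125 tumors, 5 in 3 tumors and 7 in 2 tumors. Of the 17 counted in control tumors only, 5 held reads in all 4 control tumors, 11 in 3 and 1, Xlr3a, in 2. Every member thus had reads in at least 2 tumors of its group. A single tumor held most of the summed normalized count for 14 V-125-only and 12 control-only genes, up to 96.1% for Ffar1. In each direction the 5 genes with reads in every tumor are those whose groups did not overlap. The background for this count is 39.9% of the listed protein-coding genes with a higher V-125 mean and 35.1% of those with a lower V-125 mean, and nothing is read from the comparison because the counts chose the members.

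Most of these genes were barely detected. Over the 4 tumors of the counted group, 29 of the 34 genes had fewer than 50 reads in total, with medians of 25 reads for V-125-only and 21 for control-only genes. Scaled per length, the median of their mean FPKM was 0.151, whereas the other 1279 listed protein-coding genes had a median of 6.59 in their higher group. The 5 genes above 50 reads were Sox14, C2cd4a and Pilrb1 with V-125 and Mgarp and Hba-a2 in control tumors. A count of 0 over 4 tumors allows up to 3 reads, which correspond to a mean normalized count of 0.722 in control and 0.753 in V-125 tumors. Folds written as "at least" divide the mean of the counted group by these limits. They allow for counting error in the group at 0 only. Counting error and spread over tumors in the counted group are not covered.

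**Figure D1:**
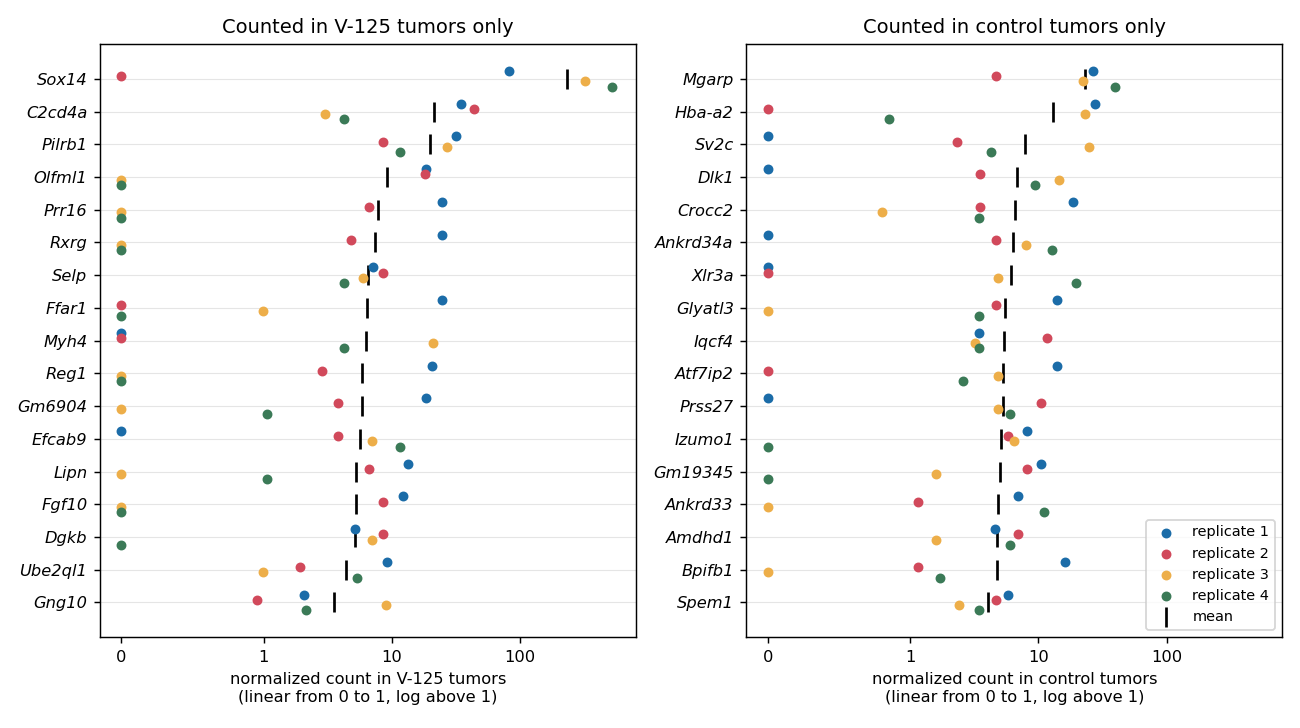
Normalized count of each of the 34 genes in the 4 tumors of the group that had reads, with points for replicates 1 to 4 and a bar for the mean (axis linear from 0 to 1 and logarithmic above 1). Sox14 alone reaches above 100, 5 genes per panel have all 4 points above 0, and most other genes lie below 30 with 1 or 2 tumors at 0.

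The transcription factor gene Sox14, which belongs to the SOX B group and is known for neuronal specification in the developing brain, had the highest values. It lies on chromosome 9 from 99874106 to 99876170. The V-125 replicates 1 to 4 had 80, 0, 321 and 491 reads, or normalized counts of 81.8, 0, 318.7 and 519.2. Replicates 3 and 4 were therefore high, replicate 1 intermediate and replicate 2 at 0 like the control tumors, so the groups overlapped. The mean normalized count was 229.9 ± 236 (SD, n = 4), at least 318.5-fold higher than the control limit, and 133.5 without V-125 replicate 4. Its mean FPKM of 6.17 was the highest among the 34 genes.

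The listed gene closest to Sox14 is the lincRNA Gm47757, which lies 15793 bases away on the same strand of chromosome 9, from 99848283 to 99858313. Gm47757 had 3, 0, 107 and 138 reads in V-125 replicates 1 to 4 and 0 reads in every control tumor. Both genes were thus high in V-125 replicates 3 and 4 and absent from the reads of V-125 replicate 2. It was singled out after its values were seen.

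**Figure D2:**
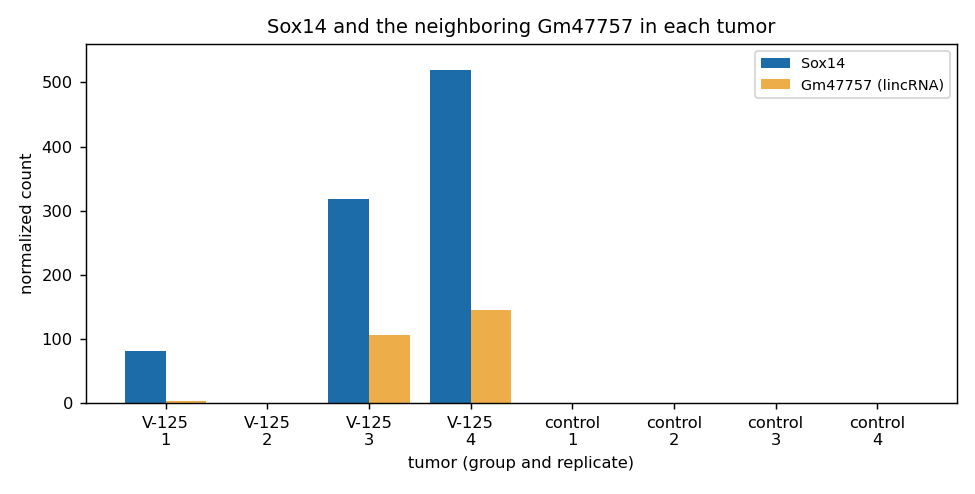
Normalized counts of Sox14 and the lincRNA Gm47757 in each of the 8 tumors. Both stand highest in V-125 replicate 4, with 519.2 and 145.9, followed by replicate 3, and both are at 0 in V-125 replicate 2 and all control tumors.

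Rxrg encodes RXR gamma, a direct receptor of both drugs, and lies on chromosome 1 from 167598384 to 167639623. It had 24 and 5 reads in V-125 replicates 1 and 2 and none in replicates 3 and 4 or in control tumors. The groups overlapped, and V-125 replicate 1 held 83.8% of the normalized counts. The mean was 7.32 ± 11.7 (SD, n = 4), at least 10.1-fold higher than the control limit, and 1.58 without V-125 replicate 1. Besides Rxrg, the list of 20 nuclear receptor genes had 1 further listed gene, Nr4a2, an orphan receptor that can pair with RXR. Normalized counts of Nr4a2 ran from 122.6 over 140.6 and 160.9 to 176.6 with V-125, and the control tumors had 118.7, 92.5, 75.9 and 91.3. Every V-125 tumor was above every control tumor (two-sided exact permutation test, p = 0.0286, the smallest that 4 tumors against 4 allow). Nr4a2 was not raised with V-125 alone. Its authors' mean was 184.4 with bexarotene and 94.1 in the same control tumors, given without a spread over tumors or a test.

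Among the 20 SOX genes, 3 besides Sox14 were listed. Sox18, a factor of vascular and lymphatic endothelium, was higher with V-125, at 423 ± 85.1 (SD, n = 4) against 271 ± 51.6 (SD, n = 4), and Sox10, a factor of neural crest and of mammary progenitor cells, was lower, at 13110 ± 1084 against 16147 ± 2024 (SD, n = 4 each). For both genes the 8 tumors separated by diet without overlap, with p = 0.0286 each in the two-sided exact permutation test. Sox6, a factor of cartilage and red cell development, had 180.4 ± 128 and 349 ± 209.96 (SD, n = 4 each), and its groups overlapped (p = 0.286 in the same exact test). In all, 4 genes of these lists were tested this way and 3 did not overlap, whereas 39.9% of all listed protein-coding genes with a higher V-125 mean and 35.1% of those with a lower one do not overlap. With 4 genes, the count is not read against these shares. The genes had been listed for their difference, so the p-values are not independent of that choice. Of the C2CD4 list (4 genes) and the mitochondrial transport list (11 names), the listed members were C2cd4a and Mgarp alone.

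C2cd4a encodes a C2 domain protein linked to acute inflammation and to pancreatic islets and lies on chromosome 9 from 67830489 to 67832330. It had 34, 46, 3 and 4 reads in V-125 replicates 1 to 4. Every V-125 tumor held reads, but replicates 1 and 2 lay far above replicates 3 and 4. The mean normalized count was 21.4 ± 20.9 (SD, n = 4), at least 29.7-fold higher than the control limit, and 14.0 without V-125 replicate 2.

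Pilrb1 encodes an activating member of the paired immunoglobulin-like type 2 receptors, which are found on myeloid and natural killer cells. It lies on chromosome 5 from 137852147 to 137858106. With 31, 9, 27 and 11 reads in V-125 replicates 1 to 4, it was the only member with at least 5 reads in every tumor of its group. The mean was 19.7 ± 11.3 (SD, n = 4), at least 27.2-fold higher than the control limit. Pilra, the inhibitory partner gene and the listed gene closest to Pilrb1, had normalized counts of 131.8, 68.4, 63.5 and 48.6 with V-125 and 42.7, 34.7, 26.4 and 46.1 in control tumors. The members of this family resemble each other in sequence, so reads could have been assigned to either gene. Itgam, the single listed gene of 4 macrophage markers, had normalized counts of 30.7 to 60.6 in V-125 and 65.5 to 89.0 in control tumors, opposite in direction to Pilrb1.

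Selp encodes P-selectin, an adhesion receptor of activated endothelium and platelets, and was the most even member. It had 7, 9, 6 and 4 reads in V-125 replicates 1 to 4, with a mean normalized count of 6.47 ± 1.83 (SD, n = 4), at least 8.97-fold higher than the control limit. Kdr, the single listed gene of 4 endothelial markers, had normalized counts of 538.5 to 834.9 in V-125 tumors and 251 to 498 in control tumors, and its part in the Selp values was not tested. Selp overlaps 2 annotated genes on the other strand, Gm16548 and Gm16587, and whether reads were counted by strand was not given in the sources used here.

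The other genes with reads in every V-125 tumor were close to the limit. Ube2ql1, related to ubiquitin-conjugating enzymes, had 9, 2, 1 and 5 reads, with a mean of 4.34 ± 3.73 (SD, n = 4), and 2.73 without V-125 replicate 1. Gng10, a G protein gamma subunit, had 2, 1, 9 and 2 reads, with a mean of 3.51 ± 3.66 (SD, n = 4), and 1.70 without V-125 replicate 3. Gng10 shares its strand and position with the annotated gene Gm20503, so its reads can belong to either.

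Among the V-125-only genes, 5 had reads in replicates 1 and 2 and in no other tumor, namely Rxrg, Olfml1, Prr16, Reg1 and Fgf10. Olfml1, a secreted olfactomedin-like protein, had 18 and 19 reads there, with a mean normalized count of 9.11 ± 10.5 (SD, n = 4), and 6.02 without V-125 replicate 1. Prr16, a proline-rich protein, had 24 and 7 reads, with a mean of 7.79 ± 11.6 (SD, n = 4), and 2.22 without V-125 replicate 1. Gm6904, a predicted gene, was similar with 18, 4, 0 and 1 reads in replicates 1 to 4, a mean of 5.81 ± 8.54 (SD, n = 4), and 1.62 without V-125 replicate 1.

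V-125 replicate 1 held reads of 15 of the 17 genes and the highest normalized count of 10 of them. Replicate 2 held reads of 14, and replicates 3 and 4 of 10 each. The reads counted on genes were 17487189, 19098630, 18240841 and 17070644 in V-125 replicates 1 to 4, so replicate 1 was not the most deeply sequenced. V-125 replicate 1 also had the highest normalized count of Cd2, a T cell gene, at 195.2 against 10.4, 23.8 and 3.17 in replicates 2 to 4 and at most 5.59 in a control tumor. Cd2 was the single listed gene of the 6 T cell markers in the list. Outside that list, and singled out after their values were seen, the T cell genes Icos and Pdcd1, each with 1 read in the control tumors, were also highest there. Icos had 34, 3, 0 and 1 reads in V-125 replicates 1 to 4, and Pdcd1 had 26, 3, 0 and 0. Adra2b, Pou3f2, Hist1h4a, Qprt and Mcpt4, also with 1 read in the control tumors, were highest there too. They had 21, 13, 30, 20 and 29 reads in V-125 replicate 1. AC125149.3, 2610318N02Rik, Vmn1r4, D330020A13Rik and Slc25a41, likewise with 1 control read, had as many or more reads in another V-125 tumor. The part of these T cell genes in the values of V-125 replicate 1 was not tested.

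Other marker lists also held listed genes. Among 5 markers of secretory alveolar cells, the casein gene Csn1s1 had normalized counts of 11030 to 231316 in V-125 and 248201 to 503854 in control tumors, without overlap, and the whey protein gene Wap had 45.5 to 142 and 33.3 to 784, with overlap. The amylase gene Amy1, the single listed gene of 8 salivary and lacrimal gland markers, had 33.2 to 108 in V-125 and 18.4 to 38.1 in control tumors, with overlap. Their part in the members' values was not tested. Of the marker lists for B cells, adipocytes, neurons and keratinocytes, 0 genes were listed.

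The remaining 7 V-125-only genes had between 21 and 25 reads in total and mean normalized counts of 5.15 to 6.38. Fgf10 is a growth factor needed for the mammary bud, Reg1 a secreted lectin of the pancreas, Ffar1 a receptor for free fatty acids, Lipn an epidermal lipase, Dgkb a diacylglycerol kinase, Efcab9 a calcium sensor of the sperm tail and Myh4 a myosin of fast skeletal muscle. Myh4 had 21 and 4 reads in V-125 replicates 3 and 4 and no others. Of the 10 skeletal muscle markers, Myh4 and Mb were listed, and Mb was at 42.7 to 109 in V-125 and 87.9 to 257 in control tumors, opposite in direction to Myh4.

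**Figure D3:**
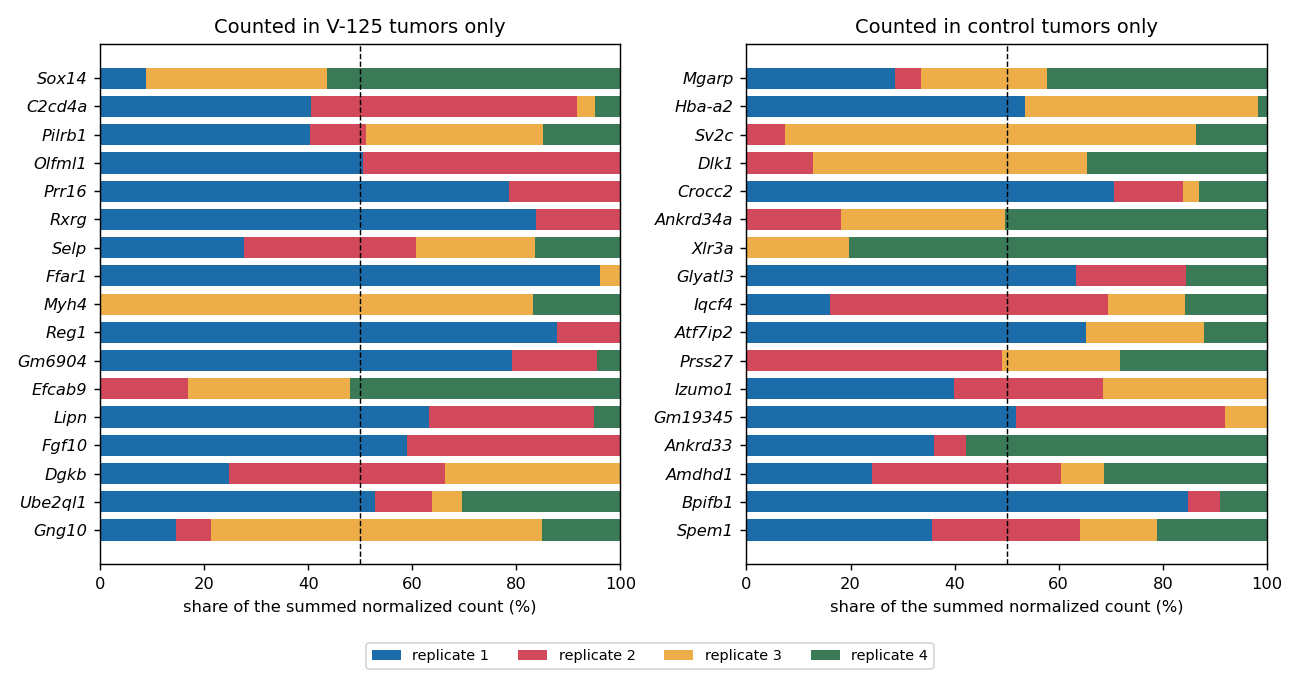
Share of each gene's summed normalized count that came from each of the 4 tumors of its group, with a dashed line at 50%. A single tumor exceeded 50% for 14 of 17 V-125-only and 12 of 17 control-only genes, from 33.0% for Selp to 96.1% for Ffar1 across the V-125-only genes.

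Mgarp led the control-only genes. It encodes a mitochondrial protein that is induced by hypoxia and helps mitochondria move along axons, and lies on chromosome 3 from 51388412 to 51396738. Control replicates 1 to 4 had 23, 4, 28 and 46 reads, and every V-125 tumor had 0. Every control tumor was therefore above every V-125 tumor, with replicate 2 the lowest. The mean normalized count in control tumors was 23.2 ± 14.3 (SD, n = 4), at least 30.8-fold higher than the limit in V-125 tumors.

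Hba-a2 encodes an adult alpha globin chain of red blood cells and lies on chromosome 11 from 32296489 to 32297298. It had 24, 0, 29 and 1 reads in control replicates 1 to 4, with a mean of 12.9 ± 14.5 (SD, n = 4), at least 17.2-fold higher than the V-125 limit, and 8.00 without control replicate 1. Control replicate 2 was at 0, so the groups overlapped. Hba-a2 is nearly identical to Hba-a1, and reads shared by the pair can be lost or split in counting. The beta globin Hbb-bt, by contrast, was present in every tumor, with normalized counts between 36.7 and 203 in V-125 tumors and between 106.7 and 343 in control tumors.

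The other 4 genes with reads in every control tumor were Crocc2, Iqcf4, Amdhd1 and Spem1. Amdhd1, an enzyme of histidine breakdown, had 4, 6, 2 and 7 reads, with a mean of 4.78 ± 2.33 (SD, n = 4), at least 6.35-fold higher than the V-125 limit. Spem1, a gene of sperm maturation, had 5, 4, 3 and 4 reads, the most even values of this direction, with a mean of 4.05 ± 1.46 (SD, n = 4), at least 5.38-fold higher. Crocc2, related to the ciliary rootlet protein rootletin, had 16, 3, 1 and 4 reads, with a mean of 6.53 ± 8.04 (SD, n = 4), and 2.56 without control replicate 1. The values of Crocc2 thus rested on control replicate 1, whereas those of Iqcf4 rested on control replicate 2. Iqcf4, an IQ motif gene, had 3, 10, 4 and 4 reads, with a mean of 5.41 ± 4.10 (SD, n = 4), and 3.36 without control replicate 2.

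In control replicate 1, 5 of the 17 control-only genes had 0 reads. Dlk1, an imprinted non-canonical Notch ligand that holds back fat cell formation, had 0, 3, 18 and 11 reads in control replicates 1 to 4, with a mean of 6.81 ± 6.36 (SD, n = 4), and 4.29 without control replicate 3. Sv2c, a synaptic vesicle glycoprotein, had 0, 2, 31 and 5 reads, with a mean of 7.83 ± 11.4 (SD, n = 4), and 2.19 without control replicate 3. Ankrd34a, an ankyrin repeat gene, had 0, 4, 10 and 15 reads, with a mean of 6.35 ± 5.41 (SD, n = 4), and 4.20 without control replicate 4. Prss27, a serine protease, had its 22 reads in the same 3 tumors. Control replicates 3 and 4 were the deepest of the 8 libraries, with 22574865 and 21171129 reads counted on genes. Control replicate 1 had the fewest, 15571690, and held the highest normalized count of 8 of the 17 control-only genes. Control replicates 2, 3 and 4 held the highest of 3, 2 and 4. The part of depth in these values was not tested. Xlr3a, of a lymphocyte-regulated family with close copies on chromosome X, had 6 and 23 reads in control replicates 3 and 4 alone, with a mean of 6.11 ± 9.30 (SD, n = 4), and 1.60 without control replicate 4.

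The predicted gene Gm19345 had 9, 7, 2 and 0 reads, with a mean of 5.02 ± 5.00 (SD, n = 4), and 3.23 without control replicate 1. It overlaps Ceacam16 on the other strand. The remaining 6 control-only genes had between 17 and 22 reads and means of 4.75 to 5.47. They were Prss27, Glyatl3, an acyltransferase-like gene, Atf7ip2, a partner of chromatin silencing, Izumo1, the sperm protein of sperm-egg fusion, Ankrd33, an ankyrin repeat gene, and Bpifb1, a secreted protein of airway mucosa. Izumo1 overlaps Rasip1 on the same strand.

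By role, 4 of the 34 genes are known for sperm or fertilization, Efcab9 with V-125 and Izumo1, Spem1 and Iqcf4 in control tumors, each with 16 to 22 reads. Intracellular signaling genes (C2cd4a, Gng10 and Dgkb) were all 3 in the V-125-only direction, and enzymes were split, with 2 V-125-only and 3 control-only genes. The surface receptors and ligands were Pilrb1, Selp and Ffar1 with V-125 and Dlk1 in control tumors. These roles were assigned after the members were known. The genes lie on 19 chromosomes, and 11 of them overlap another annotated gene, 6 on the same strand. Their median length was 2146 bases, against 3939 bases for the other listed protein-coding genes.

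Just outside the condition, 12 protein-coding genes had exactly 1 read in the 4 control tumors and between 16 and 46 reads in V-125 tumors, and 3 had exactly 1 read in V-125 tumors and between 20 and 33 in control tumors. For example, Slc25a41 had 6, 7, 2 and 1 reads in V-125 replicates 1 to 4 and 1 read in control replicate 2, and Trim15 had 7, 4, 4 and 5 reads in control replicates 1 to 4 and 1 read in V-125 replicate 4. For 8 of the 12 genes the single read was in control replicate 2. Just inside it, the members with the fewest reads were Gng10 with 14 in V-125 tumors and Spem1 with 16 in control tumors. With at most 1 read in total allowed in the other group, the V-125-only genes would number 29.

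Bexarotene group means were used for the members that the bexarotene table lists by symbol, which were 13 of the 34. They were 4 of the 17 V-125-only genes, where 28.1% of all listed protein-coding genes with a higher V-125 mean are in that table, and 9 of the 17 control-only genes, where 37.7% of those with a lower V-125 mean are. Both comparisons use the same control tumors, so a control count of 0 enters both, and values are set side by side without a test. The means are the authors' values, without a spread over tumors. Genes without a difference from control are not listed for bexarotene, so means close to control could not appear.

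For C2cd4a the authors' mean with bexarotene was 15.0, beside 21.4 with V-125. For Pilrb1 it was 6.53 beside 19.7, for Olfml1 7.51 beside 9.11 and for Gm6904 6.07 beside 5.81. The control mean in the bexarotene table was 0 for each of these genes. Rxrg, Sox14 and Selp are not in the bexarotene table, and their levels with bexarotene were not analysed here.

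For Mgarp the authors' mean was 1.34 with bexarotene and 23.0 in control tumors. The authors' bexarotene mean was 0 for 6 of the 9 control-only genes listed there, Hba-a2, Ankrd34a, Xlr3a, Iqcf4, Gm19345 and Amdhd1, whose control means in that table were 12.9, 6.30, 6.05, 5.38, 5.00 and 4.75. Crocc2 had 0.550 with bexarotene and 6.50 in control tumors, and Spem1 had 0.237 and 4.03. Next to the 0 of Hba-a2, the same table gives its close copy Hba-a1 a mean of 2334 with bexarotene and 5196 in control tumors. Sv2c and Dlk1 are not in the bexarotene table.

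**Figure D4:**
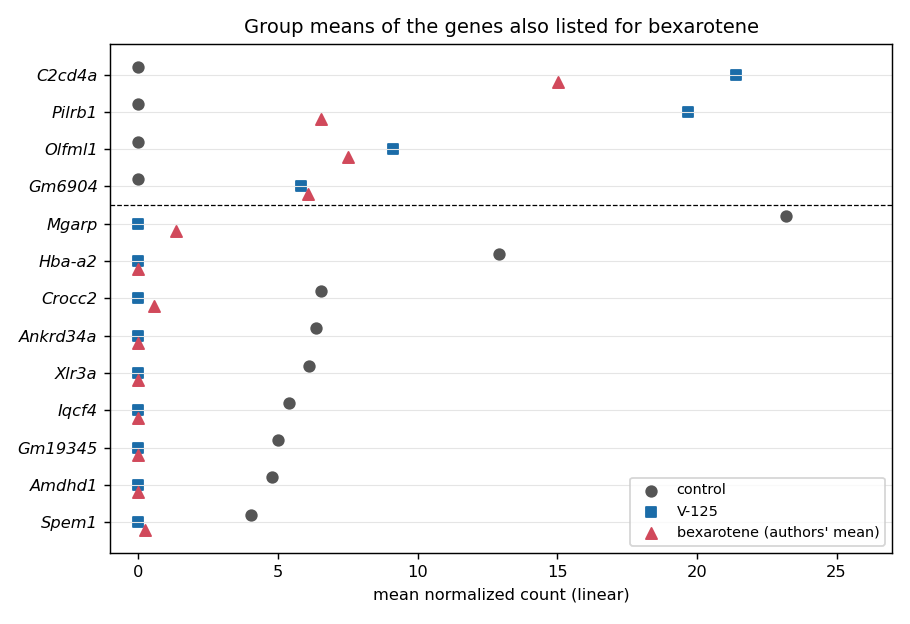
Mean normalized counts in control, V-125 and bexarotene tumors for the 13 members listed in both tables, with V-125-only genes above the dashed line and control-only genes below. Bexarotene means are the authors', share the control tumors and are scaled slightly differently from the V-125 means. They lie between 6.07 and 15.0 above the line and between 0 and 1.34 below it. With control at 0, the means above the line could only be higher than control. Genes without a difference from control are not listed, so means close to control could not appear below the line.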

How the data were processed

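RNA from 12 mammary tumors was sequenced after polyA enrichment, and the sample labels gave each tumor its group and replicate number. The submitters' processing notes name STAR (2.6.1d), featureCounts (1.5.0-p3) and limma, and a genome build was not given in the sources used here. All 34 member identifiers were found in GENCODE M21 on GRCm38, 33 with identical coordinates, so GRCm38 was used for annotation and RefSeq promoters. Raw read counts of 8 tumors were deposited for the V-125 comparison. Beside them stand deposited normalized counts, a signal in which each tumor's counts are divided by a single size factor, and deposited FPKM, which scale counts by gene length and by the reads counted on genes. For bexarotene the authors deposited group means of normalized counts without gene identifiers, so that members were matched by symbol. Means of the shared control tumors differ slightly between the V-125 and bexarotene comparisons, at 23.2 and 23.0 for Mgarp. The scaling was therefore not identical. Both tables hold p-values deposited by the authors that end at 0.05, so genes without a difference are not listed. The columns of fold changes, p-values and adjusted p-values hold the authors' comparisons, and apart from finding this limit they were not used.

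Library totals were derived from counts, FPKM and gene lengths of genes with at least 50 reads. Folds written as "at least" divide the mean normalized count by that of 3 reads over the group with a count of 0. The error of the mean itself is not covered. A count model across genes was not fitted, because the listed genes were selected on the difference and the members on their counts. Only 4 other genes of fixed lists were tested, by two-sided exact permutation over the 70 assignments of 8 tumors, without adjustment. Members, lists and roles were chosen with earlier results of these data known. Genes given with values in every tumor were those with reads in all 4 tumors of their group, the 5 highest means per direction, members listed for bexarotene, and C2cd4a, Sox14, Rxrg and Mgarp. Others were described by role and range. Alternatives were other limits for absence, biotypes, scalings, the median, and leaving out each tumor in turn. Python 3.11.15 with numpy 2.4.6 and pandas 2.3.3 was used.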

Additional observations from a re-analysis of the deposited data

Results flagged for a closer look

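Among the 34 genes, 6 had a tumor far from the other 3 of its group by Dixon's criterion, 3 in V-125 and 3 in control tumors. Chance flags about 1 in 20 groups of unselected, normally distributed values. The 34 genes were chosen by these same low counts, many of them 0, so that rate does not hold for them and the values are given as a description, not as a test. In V-125 replicate 1, Ffar1 had a normalized count of 24.5 with the next tumor at 0.993, and Reg1 had 20.4 with the next at 2.85. Gng10 was at 8.94 in V-125 replicate 3 and at 2.11 in the next tumor. In control replicate 1, Crocc2 was at 18.4 with the next tumor at 3.47, and Bpifb1 was at 16.1 with the next at 1.71. Iqcf4 was at 11.6 in control replicate 2, with the next tumor at 3.46.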

How the results depend on the processing

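The number of V-125-only genes, 17, depended on what counts as absent. It was 29 with at most 1 read in total in the control tumors, 29 with at most 1 read in each of them and 37 with at most 3 reads in total, whereas the control-only genes stayed within 1.5 times of 17 under these limits. With genes of any biotype there were 32 V-125-only and 52 control-only genes. Leaving out each tumor in turn gave 17 to 26 V-125-only and 17 to 19 control-only genes, and the 26 came without control replicate 2. All members had reads in at least 2 tumors of their group, so leaving out 1 tumor could not lower these counts. Nor could it lower the number of genes with reads in every remaining tumor of their group. Genes with reads in every tumor of their group numbered 10, between 11 and 16 when each tumor was left out in turn (16 without control replicate 3), and 1, Pilrb1, when a tumor needed 5 reads. Without members that overlap another annotated gene, an alternative chosen after seeing the data, 10 V-125-only genes were left. Keeping names that start with Pcdh, Hsp or Dnaj, or asking for 10 reads in total, changed no count. Of 126 alternative means of the 21 genes given with values in every tumor, 0 moved by 1 SD or more. Leaving out 1 of 4 tumors, or taking the median, cannot move a mean by that much, so this 0 does not show stability. The SDs were often above the mean, and 16 of the 21 means moved by over 1.5 times without 1 tumor. The count of 3 non-overlapping list genes was 3 without each tumor and 3 with FPKM. Leaving out a tumor cannot make separated groups overlap, so that count could not fall below 3. The background for this count was 39.9% and 35.1% of all listed protein-coding genes with a higher and a lower V-125 mean. With the replicate block, 3 of the 4 genes changed in 1 direction in all same-numbered pairs. These are the non-overlapping genes, for which any pairing gives 1 direction, so the block adds no separate check. In a sign-flip test, 4 pairs cannot give a p-value below 0.125. Replicate numbers name different mice, and over 1372 genes the deviations of same-numbered tumors from their group means correlated between -0.172 and 0.0889, so not every tumor went best with its own number. Matching to the bexarotene table by gene identifier was not run, since that table holds symbols alone. All but a few members had totals of only 14 to 38 reads over the 4 tumors of the counted group. In the other group, 0 reads do not separate a lower level from absence. The part of depth was not tested.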

Other observations

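Beside the 34 of 1313 protein-coding genes, 50 of the 276 listed genes of other biotypes (18.1%) were counted in 1 group only, of which 15 were V-125-only and 35 control-only. By biotype, lincRNA genes made up 13 of them, unclassified transcripts of the TEC biotype 11 and antisense genes 7, and the antisense genes were all control-only. Reads in every tumor of the group were found for 7 of the 15 and for 9 of the 35. In the bexarotene table, 29 genes have a control mean of 0 and 46 have a bexarotene mean of 0.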
